A study of Mus musculus with 8 samples.

Results

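The 10 genes Pdx1, Mafa, Nkx6-1, Nkx2-2, Neurod1, Insm1, Isl1, Pax6, Rfx6 and Foxa2 encode the core transcription factors of pancreatic β cells. They were taken by symbol from the 55536 genes of the count table, not by any measured value. All 10 were present, and all 10 passed the filter on low counts. They were followed in MIN6 cells, an insulin-producing line derived from a mouse insulinoma, in a series whose title concerns α-cell identity and the factors KLF4 and NKX2.2. The data are poly(A) RNA-seq counts of 8 libraries, 4 for each plasmid. Wild-type cells carrying empty pcDNA 3 were the controls, and wild-type cells carrying pGloMyc-Klf4 were made to express the zinc-finger transcription factor Klf4. Both plasmids were delivered by lipofection (Lipofectamine 3000) over 48 h. Replicates 1 and 2 of each group belonged to batch 1 and replicates 3 and 4 to batch 2, as the labels name them. The plasmids differ in name beyond the insert, so backbone and Klf4 cannot be told apart. A single cell line was used, and each bulk library averages transfected and untransfected cells. Fewer cells of a type and less RNA per cell likewise cannot be told apart.

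These factors act as a network in which most members bind one another's regulatory regions and those of insulin and of genes for glucose sensing and secretion. Pdx1 and Foxa2 act early in pancreas formation and again in the mature cell. Neurod1, Insm1, Isl1, Pax6, Nkx2-2 and Rfx6 drive or maintain endocrine fate, while Nkx6-1 and Mafa mark the β-cell branch and its maturation. Loss of several of them in mouse β cells is known to lower insulin production or to let genes of other islet cell types appear.

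Klf4 itself was at 36.1 to 42.8 CPM (library-size-scaled counts with TMM factors) in control libraries and at 4532.2 to 5852.9 CPM in Klf4 libraries, which fits the labels. Library totals ranged from 45417853 to 52731176 counts. The quasi-likelihood test of edgeR, with p-values adjusted after Benjamini and Hochberg, called 6684 of 18266 tested genes (36.6%) at a threshold of 0.05, and 57.7% of those calls were higher in Klf4 libraries. That share was 72.8% with TMM factors set from abundant genes and 28.8% with a least-squares offset for GC content and length, so the balance of higher and lower calls depended on the scaling. The cell type named in the labels was checked against markers. The 6 β-cell markers summed to 23900 to 30500 CPM in control and 22400 to 30800 CPM in Klf4 libraries. The extraction text speaks of isolated islets, yet the exocrine genes Prss2 and Amy2a5 had no count in any library, and the 6 acinar markers summed to 4.24 CPM at most. Of the other lists, 6 α-cell markers summed to 589 to 710 CPM in control and 603 to 705 CPM in Klf4 libraries, nearly all of it Ttr and Gcg. The summed markers of δ and PP cells were 0.0203 to 0.319 CPM against 0.773 to 1.92 CPM, those of duct cells 0.518 to 0.945 CPM against 3.27 to 4.84 CPM, and those of stroma and leukocytes 6.69 to 8.05 CPM against 10.4 to 11.9 CPM. The last 3 sums were higher in every Klf4 library than in any control library, and their part in the values below was not tested. Not all markers of these lists rose. The largest rises in mean were in Pyy (0.00507 to 1.05 CPM), Krt19 (0.237 to 3.24) and Col1a1 (1.91 to 3.98). Pdgfra (0.0258 to 0.83 CPM), Cdh5 (0 to 0.403) and Sox9 (0.00531 to 0.206) also rose, with few or no counts in control. Sst (0.0467 and 0.068 CPM), Spp1 (0.488 and 0.477) and Col1a2 (1.34 and 1.42) moved far less, and Ptprc was lower (0.0565 and 0.0246).

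In control cells the 10 genes differed widely in length-scaled level, led by Pdx1 and Mafa. Pdx1, a homeodomain activator of insulin, stood at 303 ± 8.43 CPM per kb of annotated exon, and Mafa, a basic leucine zipper factor of mature β cells, at 233 ± 21.7 (SD, n = 4 here and for the levels that follow). Next came Neurod1, a basic helix-loop-helix factor, at 80.5 ± 4.24 CPM per kb, and the homeodomain factors Nkx6-1 at 64.4 ± 2.53 and Nkx2-2 at 51.3 ± 1.96. The zinc-finger factor Insm1 was at 42.5 ± 2.58 CPM per kb. A lower group held the forkhead factor Foxa2 at 25.8 ± 1.06, the paired-box factor Pax6 at 24.2 ± 0.727, the LIM-homeodomain factor Isl1 at 21.5 ± 1.15 and the winged-helix factor Rfx6 at 20.3 ± 0.838 CPM per kb. Neighbours in this order did not overlap between control libraries, except Foxa2 with Pax6 and Isl1 with Rfx6. Pax6 has 11694 bases of annotated exon, against 2158 to 4010 for the others, which lowers its length-scaled value if much of that sequence is not in the MIN6 transcript.

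**Figure D1:**
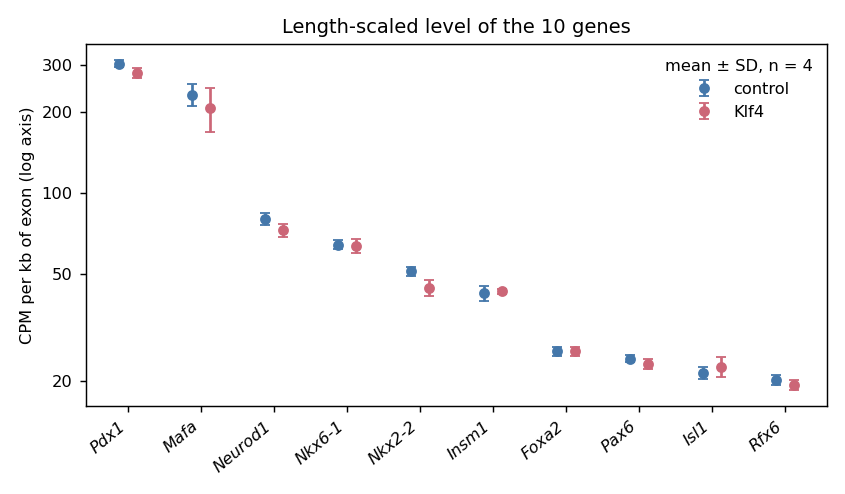
Length-scaled level of the 10 genes in control (blue) and Klf4 (red) libraries, as mean ± SD of 4 libraries in CPM per kb of exon on a log axis, ordered by the control mean. Pdx1 and Mafa sit highest, at 303 and 233 CPM per kb in control, and Foxa2, Pax6, Isl1 and Rfx6 lie between 20.3 and 25.8.

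All 10 genes stayed expressed with forced Klf4, and their log2 fold changes lay between -0.20 and 0.07 under TMM scaling. In the fit over both batches 4 of the 10 fell, namely Nkx2-2, Mafa, Neurod1 and Pdx1, with changes from -13.1% for Nkx2-2 to -7.7% for Pdx1, and none rose. The other 6 did not pass the threshold. Of all tested genes 15.5% were called lower and 21.1% higher. Among the 4183 tested genes at least as abundant as Foxa2, the lowest member, 47.1% were called, 31.2% lower and 15.9% higher, so 4 lower calls among 10 genes is near the share of genes of such abundance, a cut chosen after the values were seen. The median log2 fold change of the 10 genes was -0.06, against -0.01 over all tested genes and -0.04 over those abundant genes. No member reached a fold change of 1.2 in that fit. The sizes depended on the scaling: a least-squares offset for GC content and length put Mafa at -0.59, Nkx2-2 at -0.51, Pdx1 at -0.43 and Neurod1 at -0.14, where the median of all tested genes was -0.11. With robust smoothing of that offset they were -0.28, -0.23, -0.14 and -0.09. Disregarding batch, the groups of 4 libraries overlapped for each of the 10 genes, whereas 26.1% of tested genes showed no overlap.

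Upstream sequence is shown for 4 of these genes, since Nkx2-2, Neurod1 and Pdx1 fell and Isl1 had the highest fold change of the 10. Klf4 is known to bind GC-rich sites with a CACCC core. Sequences come from RefSeq on GRCm38.p6, where 8 of the 10 genes had an entry with 11 start sites. Each line gives the part of the 250 bases before the annotated start that lies ahead of any GENCODE M21 exon, read 5′ to 3′ on the gene's strand, with CACCC or its reverse complement GGGTG in capitals. The Nkx2-2 stretch precedes a start inside the GENCODE gene span.
Nkx2-2, chr2:147186456-147186652, minus strand: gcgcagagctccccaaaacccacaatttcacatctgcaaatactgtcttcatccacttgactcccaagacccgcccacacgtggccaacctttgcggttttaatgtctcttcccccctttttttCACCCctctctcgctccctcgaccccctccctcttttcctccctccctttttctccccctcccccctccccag
Neurod1, chr2:79456786-79456886, minus strand: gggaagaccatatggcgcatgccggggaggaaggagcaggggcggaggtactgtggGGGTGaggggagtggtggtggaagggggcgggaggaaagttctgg
Pdx1, chr5:147269847-147269958, plus strand: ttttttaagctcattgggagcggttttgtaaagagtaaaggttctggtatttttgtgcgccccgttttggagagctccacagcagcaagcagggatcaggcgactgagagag
Isl1, chr13:116309690-116309938, minus strand: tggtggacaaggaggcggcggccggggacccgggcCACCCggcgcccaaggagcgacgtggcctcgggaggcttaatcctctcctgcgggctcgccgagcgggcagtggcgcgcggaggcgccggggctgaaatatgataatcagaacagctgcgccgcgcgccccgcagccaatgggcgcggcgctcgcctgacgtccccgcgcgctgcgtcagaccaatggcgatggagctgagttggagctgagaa
Over the full 250 bases, 7 of the 11 windows, from 6 of the 8 genes, held CACCC on either strand, and 52% of all 32851 windows of that length did. The longer form GGGNGTG was in 4 of the 11 windows, against 26.1% of all windows, and can overlap GGGTG. The GC box GGGCGG was also in 4, against 32.7%. Pdx1, Nkx2-2 and Isl1 had 1 CACCC match each in their 250 bases and Neurod1 had 2. Any link of this letter string to the fold changes was not tested. Mafa, the fourth gene that fell, and Insm1 are not among the 8 genes. These are matches of letters, not binding sites.

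Nkx2-2, a homeodomain factor that both represses and activates in islet cells and that the series names beside KLF4, showed the largest fall. It lies on chromosome 2 at 147177546 to 147194243, minus strand (GRCm38). It measured 150.9, 139, 150 and 149.6 CPM in control replicates 1 to 4 and 130.5, 139, 118.7 and 124.9 CPM in Klf4 replicates 1 to 4. All 4 Klf4 libraries but replicate 2 lay below every control library, and replicate 2 matched the lowest control. Group means of 147.4 ± 5.63 and 128.3 ± 8.63 CPM (SD, n = 4) gave a log2 fold change of -0.20 with SE 0.04 and an edgeR adjusted p of 0.000227. Its call held under each of 22 other scalings, filters, models and left-out libraries, though not when a fold change of 1.2 was also required. The antisense gene Nkx2-2os shares 278 exon bases with it and was at 0.924 to 1.34 CPM, at most 0.887% of Nkx2-2 in any library. The genes whose log2 CPM followed Nkx2-2 most closely across the 8 libraries were Ccdc137 (Pearson r 0.989, Spearman rho 0.976), Map3k12 (0.988 and 0.952) and Zscan22 (0.982 and 0.976). Libraries share plasmid and batch, and 124 of 10481 genes searched had an r over 0.9, so these values describe a common pattern of the libraries.

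Mafa (chromosome 15, 75745490 to 75748228, minus strand) varied most between libraries. It was at 705.8, 669, 590.6 and 585.3 CPM in control replicates 1 to 4 and at 650.5, 674.3, 465.5 and 488 CPM in the Klf4 replicates. In batch 1 the groups overlapped, and in batch 2 both Klf4 libraries were under both controls. The log2 fold change over both batches was -0.18 (SE 0.04, edgeR adjusted p = 0.00066), and the group means were 637.7 ± 59.4 and 569.6 ± 108 CPM (SD, n = 4). Pdx1 (chromosome 5, 147269959 to 147275848, plus strand) measured 653.5, 629.6, 669.9 and 666.2 CPM in control and 618.3, 633.5, 580.9 and 586.3 CPM in Klf4 libraries. Means were 654.8 ± 18.2 and 604.8 ± 25.3 CPM (SD, n = 4), and the log2 fold change was -0.12 (SE 0.03, edgeR adjusted p = 0.00367). The overlap between groups came from control replicate 2 and Klf4 replicate 2. The antisense gene Plut overlaps Pdx1 but shares no exon base with it and was at most 0.991% of its level.

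Neurod1 (chromosome 2, 79452521 to 79456751, minus strand) dimerises with the E proteins and activates insulin. It stood at 210, 209.7, 227.3 and 232 CPM in control and at 186.2, 212.8, 193.9 and 202 CPM in Klf4 libraries. Again 3 of 4 Klf4 libraries were below every control and replicate 2 was not. Means were 219.8 ± 11.6 and 198.7 ± 11.4 CPM (SD, n = 4), and the log2 fold change was -0.14 (SE 0.04, edgeR adjusted p = 0.00337). Neurod1 shares 201 exon bases with Cerkl on the same strand and 154 with the non-coding Gm26755 on the opposite strand, which were at most 6.14% and 0.432% of its level. Exact 2-sided permutation tests of CPM that ignore batch gave 0.0571 for Nkx2-2 and Pdx1, 0.0857 for Neurod1 and 0.314 for Mafa, where 0.0286 is the smallest p that 4 against 4 allows. None of the other 6 genes went below 0.143 in that test.

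The remaining 6 genes did not pass the threshold, and their intervals hold for TMM scaling alone. With the least-squares GC and length offset Nkx6-1 (-0.40), Insm1 (-0.40), Foxa2 (-0.35) and Pax6 (-0.12) were called lower, outside the intervals below for the first 3. Isl1, which works with the adaptor Ldb1, measured 89.9, 88, 80.8 and 81.6 CPM in control and 95.8, 97, 83.3 and 82.6 CPM in Klf4 libraries. Within each batch both Klf4 libraries were above both controls, and the log2 fold change was 0.07 (95% interval 0.01 to 0.14) with an edgeR adjusted p of 0.0701. Isl1 passed the threshold as higher in 4 of 22 alternatives, among them TMM factors from abundant genes (0.11, adjusted p = 0.00767). Insm1, a repressor of alternative endocrine fates, was at 126.7, 122.9, 138.3 and 138.5 CPM in control and 130, 134.1, 135.3 and 136.8 CPM in Klf4 libraries. It lay higher with Klf4 in batch 1 and lower in batch 2, and its pooled log2 fold change was 0.03 (interval -0.04 to 0.09, edgeR adjusted p = 0.528).

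Nkx6-1, which keeps α-cell genes silent in β cells, showed 209.3, 208, 198.8 and 192.5 CPM in control and 212, 209.8, 187.6 and 190.8 CPM in Klf4 libraries. Batch separated its libraries more than plasmid did, and the log2 fold change was -0.02 (interval -0.07 to 0.04, edgeR adjusted p = 0.691). Foxa2, a pioneer factor that opens chromatin, had 60.5, 58, 62.9 and 63.5 CPM in control and 60.1, 64.7, 58.7 and 61.2 CPM in Klf4 libraries. Its log2 fold change of -0.00 (interval -0.08 to 0.08, edgeR adjusted p = 0.982) changed sign with the scaling and the filter. Both genes turned positive, at 0.02 for Nkx6-1 and 0.03 for Foxa2, with TMM factors from abundant genes. Nkx6-1 was called lower in 4 of 22 alternatives, all of them GC and length offsets, at -0.40 (edgeR adjusted p = 9.53e-12) with least squares and -0.08 (0.00812) with robust smoothing.

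Pax6, an activator of hormone and hormone-processing genes, was at 275.6, 276.8, 292.8 and 288.3 CPM in control and 269.2, 287.5, 259.4 and 269.4 CPM in Klf4 libraries. In batch 2 both Klf4 libraries were below both controls, while in batch 1 they lay on either side. The log2 fold change was -0.06 (interval -0.13 to 0.00, edgeR adjusted p = 0.133). Rfx6, needed for islet formation and for insulin secretion, was at 79.8, 80.7, 78.8 and 86.3 CPM in control and 76.1, 82.8, 76 and 76.9 CPM in Klf4 libraries. Klf4 replicate 2 stood above the other 3 Klf4 libraries, and the log2 fold change was -0.06 (interval -0.14 to 0.01, edgeR adjusted p = 0.204). Without Klf4 replicate 2 both genes passed the threshold as lower, Pax6 at -0.10 (adjusted p = 0.0103) and Rfx6 at -0.10 (adjusted p = 0.035). Pax6 was called lower in 6 of 22 alternatives, also without control replicate 1 (adjusted p = 0.0459), without control replicate 2 (0.0371), with no filter on low counts (0.0446) and with the least-squares GC and length offset, alone (-0.12, 0.00257) or with the replicate block (-0.13, 0.00924).

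**Figure D2:**
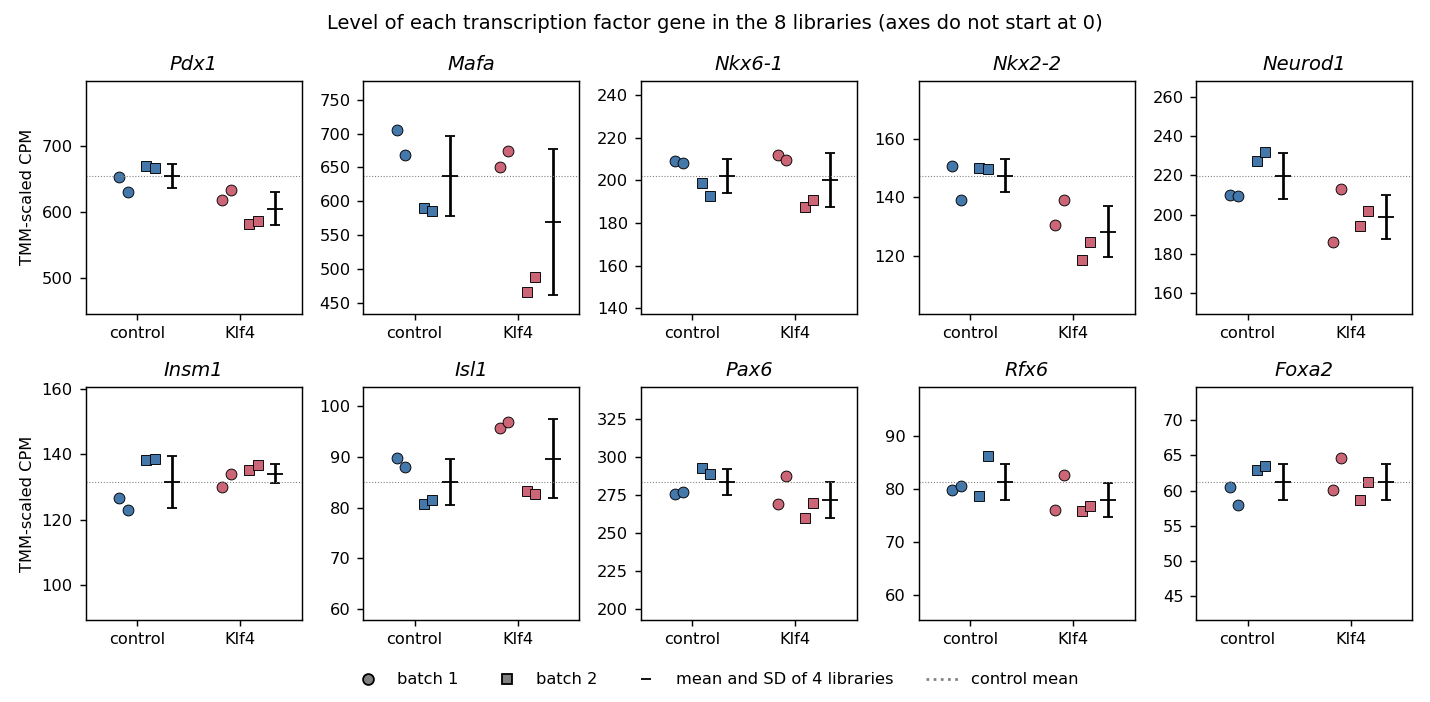
TMM-scaled CPM of each of the 10 genes in every library, with circles for batch 1, squares for batch 2, black bars for mean and SD of 4 libraries and a dotted line at the control mean. Every panel spans the same range relative to its control mean and does not start at 0. Klf4 squares lie below control squares for 9 genes and above them for Isl1, and Mafa in batch 2 shows the widest gap, at 465.5 and 488 against 590.6 and 585.3 CPM.

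The batches were also fitted apart, and their difference was tested. Within batch 1, 1 member passed the threshold and it rose (Isl1, log2 fold change 0.12, edgeR adjusted p = 0.0431), where 23.5% of tested genes were called, 15.8% higher and 7.66% lower. With batch 1 fitted alone no member was called, though 2 had an unadjusted edgeR p under 0.05. Within batch 2, 5 members fell, where 32% of tested genes were called, 12.4% lower and 19.6% higher. These shares of calls were not taken over abundant genes alone. With TMM factors from abundant genes 4 fell. The 5 were Mafa (-0.30, adjusted p = 2.93e-08), Nkx2-2 (-0.30, 2.03e-06), Neurod1 (-0.21, 0.000257), Pdx1 (-0.19, 1.87e-05) and Pax6 (-0.14, 0.00487). In batch 1 the same 5 genes had log2 fold changes of -0.05, -0.10, -0.07, -0.04 and 0.01. The pairs of libraries did not overlap in batch 2 for any of the 10 genes, against 63% of tested genes and 72.9% of those at least as abundant as Foxa2. In batch 1 they did not overlap for 3 (Isl1, Insm1 and Nkx6-1, higher with Klf4), against 58.5% and 65.8%.

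All 10 genes had a lower fold change in batch 2 than in batch 1, as had 49.6% of all tested genes and 55.8% of those at least as abundant as Foxa2. The 10 genes are measured in the same libraries and are not independent. Tested singly, the difference between batches passed the threshold for Mafa (interaction -0.25 on the log2 scale, edgeR adjusted p = 0.00817), where 0.766% of tested genes passed. For the other 9 it did not, with adjusted p from 0.12 for Pdx1 to 0.72 for Nkx6-1. The Mafa difference kept its sign without any one library and lost its call without Klf4 replicate 2 (-0.23, adjusted p = 0.0854). Without control replicate 1 the difference passed for Nkx2-2 (adjusted p = 0.0208) and Pdx1 (0.045) too.

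**Figure D3:**
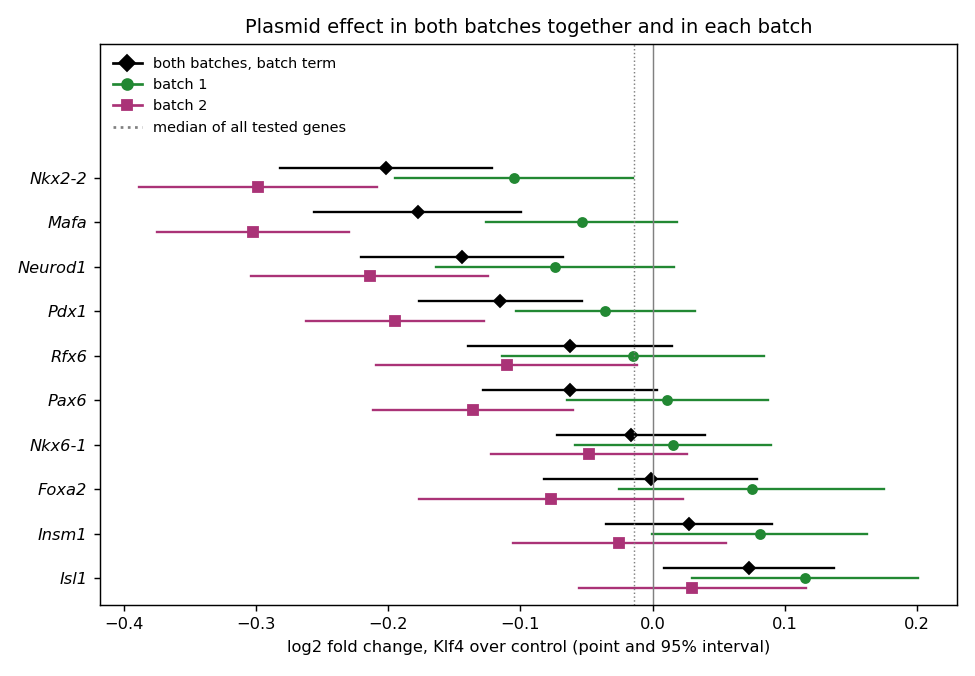
Log2 fold change of Klf4 over control for the 10 genes, ordered by the pooled value, with points for both batches together (black), batch 1 (green) and batch 2 (purple), bars for 95% intervals and a dotted line at the median of all tested genes. Batch 2 lies to the left of batch 1 for every gene, most widely for Mafa, at -0.30 against -0.05.

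Some measures differed between or within the batches. The Klf4 gene reached 4873.3 and 4532.2 CPM in the Klf4 libraries of batch 1, against 4903.4 and 5852.9 in those of batch 2. Klf4 replicate 2 had the lowest of these and, compared with its batch partner replicate 1, was higher in 9 of the 10 genes, all but Nkx6-1, as it was in 48.7% of tested genes. In batch 2, replicate 4 had more Klf4 than replicate 3 and was also higher in every member but Isl1, with Mafa at 488 against 465.5 CPM. The members share these libraries, and the share of all tested genes was not taken for this pair, so nothing is read from that direction. Klf4 replicates 1 and 3, from different batches, had Klf4 at 4873.3 and 4903.4 CPM and Mafa at 650.5 and 465.5 CPM. The batches also differed in control cells, where Mafa averaged 687.4 CPM in batch 1 and 587.9 CPM in batch 2. The glucose transporter gene Slc2a2 averaged 151.4 CPM in batch 1 controls and 87.8 CPM in batch 2 controls, and the maturity marker Ucn3 averaged 45.9 and 26.2 CPM. Slc2a2 and Ucn3 were singled out after their values were seen. The part of these values in the batch split was not tested.

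Batch itself, with plasmid in the model, separated 4 of the 10 genes, where 25.1% of tested genes were called, 13.4% higher in batch 2 and 11.6% lower. Mafa was lower in batch 2 (log2 -0.35, edgeR adjusted p = 5.41e-07), as were Isl1 (-0.17, 0.00023) and Nkx6-1 (-0.12, 0.00139), and Insm1 was higher (0.10, 0.0232). For Mafa the batch difference was larger than the pooled plasmid difference. The 10 genes together summed to 2482 to 2562 CPM in the 4 control libraries. In Klf4 libraries of batch 1 the sum was 2429 and 2536 CPM, and in those of batch 2 it was 2159 and 2219 CPM, so that both batch 2 Klf4 libraries were under every other library. Mafa and Pdx1 weigh most in this sum. In batch 2 Mafa averaged 587.9 CPM in control and 476.7 CPM in Klf4 libraries, and Pdx1 668 and 583.6 CPM.

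Of 22 genes that these factors are known to regulate 10 changed, 8 lower and 2 higher, with a median log2 fold change of -0.06. Over all tested genes 36.6% were called with a median of -0.01, and over the abundant genes 47.1% with a median of -0.04, so the count is near the background. The largest falls were in the granule zinc transporter Slc30a8 (-0.22, SE 0.03, edgeR adjusted p = 5.23e-07, from 194 ± 6.37 to 166 ± 6.2 CPM), the oxidoreductase Ero1lb, which aids insulin folding (-0.14, SE 0.03, 0.00158), and the islet glucose-6-phosphatase G6pc2 (-0.13, SE 0.03, 0.00151). Of the targets named here, groups of 4 did not overlap for Slc30a8 and G6pc2, as for 26.1% of all tested genes and 27.3% of abundant genes. Both were picked for large called changes, so their lack of overlap is no added result. The prolactin receptor gene Prlr rose (0.62, SE 0.14, edgeR adjusted p = 0.00125, from 2.27 ± 0.71 to 3.43 ± 0.559 CPM), as did the fatty acid receptor gene Ffar1 (0.11, SE 0.03, 0.00333). The insulin genes, the classic targets of Pdx1, Neurod1 and Mafa, named after their values were seen, had log2 fold changes of -0.02 for Ins1 and -0.03 for Ins2, with edgeR adjusted p of 0.66 and 0.447.

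Dimer partners and cofactors changed in both directions. Of 20 such genes 12 changed, 5 higher and 7 lower, against 36.6% of all tested and 47.1% of abundant genes. Their median of -0.04 equals that of the abundant genes. Ssbp3, which stabilises the Ldb1 complex of Isl1, rose most (log2 0.36, SE 0.04, edgeR adjusted p = 5.36e-08, from 74.6 ± 3.32 to 95.5 ± 3.75 CPM). Rcor1, a corepressor partner of Kdm1a, rose by 0.29 (SE 0.04, adjusted p = 1.51e-06) and Tle3, a Groucho corepressor of NK homeodomain factors, by 0.27 (SE 0.03, 1.44e-07). Groups of 4 did not overlap for these 3 genes or for Crebbp, as for 26.1% of all tested genes and 27.3% of abundant genes. The genes named here were picked for large called changes, so their lack of overlap is no added result. The E protein gene Tcf4 fell by 0.19 on the log2 scale (SE 0.03, adjusted p = 0.000104), and so did the acetyltransferase genes Crebbp (-0.19, SE 0.03, 0.000116) and Ep300 (-0.13, SE 0.04, 0.0123).

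Other transcription factors of mature β cells also changed in both directions, 3 higher and 4 lower of 12. Over all tested genes 36.6% were called, 21.1% higher and 15.5% lower, and over abundant genes 47.1%. Tcf7l2, among the 3, passed the filter through its Klf4 libraries alone, so nothing is read from its call. Hnf4a, a nuclear receptor, rose by 0.47 on the log2 scale (SE 0.04, edgeR adjusted p = 8.44e-09) from 44.1 ± 5 to 60.7 ± 1.86 CPM. Foxa1, the close relative of Foxa2, rose by 0.63 (SE 0.14, adjusted p = 0.00134) at 2.05 ± 0.488 and 3.2 ± 0.842 CPM, far below Foxa2 itself. The Wnt effector gene Tcf7l2 had no count in control libraries and 14 to 18 counts in each Klf4 library, at least 4.86-fold higher than a floor of 3 counts per library. Esrrg, an orphan nuclear receptor, fell by 0.36 (SE 0.05, 2.02e-06), Etv1, an ETS factor, by 0.22 (SE 0.04, 3.72e-05) and Myt1, a zinc-finger factor, by 0.21 (SE 0.03, 6.02e-06).

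Of 18 transcription factors of progenitors and other pancreatic lineages 9 passed the filter on low counts. Of those 9, 6 were called higher and 1 lower. A gene absent from control cells could pass the filter only through its Klf4 libraries, so nothing is read from these counts. The endoderm factors Gata4 and Gata6 reached 2.47 ± 0.876 and 2.67 ± 0.453 CPM from 0.0574 ± 0.0367 and 0.0788 ± 0.0957 CPM, levels given as a description (SD, n = 4). Nkx6-2, a relative of Nkx6-1, fell by 0.15 (SE 0.05, adjusted p = 0.0181). Counts of these relatives and of the members could share reads where sequences are alike.

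**Figure D4:**
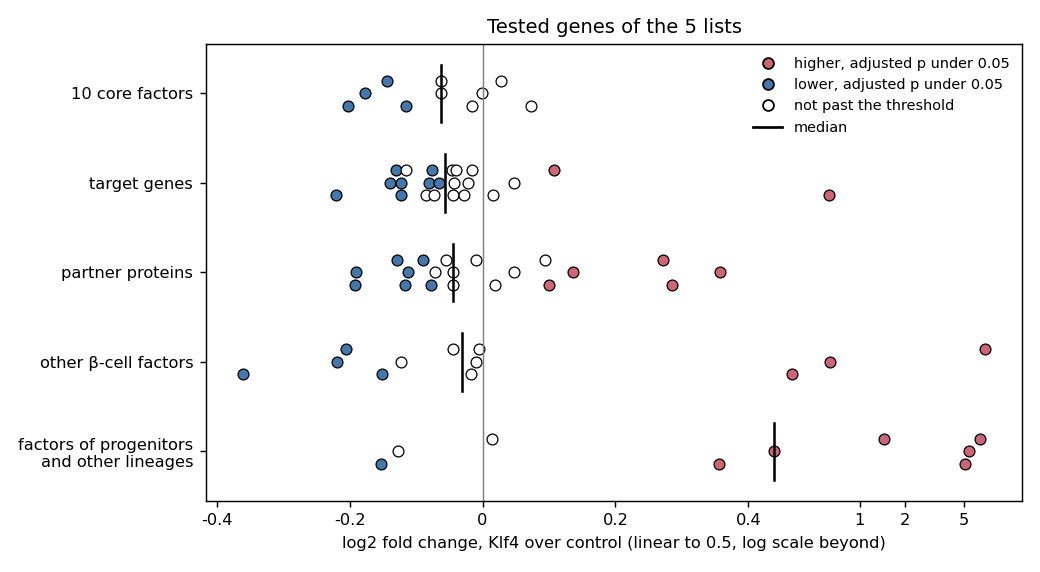
Log2 fold change of Klf4 over control for each tested gene of the 5 lists, with filled circles past an adjusted p of 0.05 (red higher, blue lower), open circles otherwise and a black line at the list's median. The axis is linear to 0.5 and logarithmic beyond. The 10 core factors lie between -0.20 and 0.07, and genes nearly absent from control cells, which passed the filter through their Klf4 libraries, lie far to the right.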

How the data were processed

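Values were whole-number read counts per gene, which the authors deposited as 1 column per library, not normalised or pooled. The submitters' processing notes list FastQC, STAR, featureCounts, edgeR and mm10 (the GRCm38 build). Trimming with cutadapt is known only from the name of the deposited table. The strand setting is not given in the sources used here, so genes that overlap others are uncertain. All 55536 identifiers matched GENCODE M21, which gave coordinates and exon lengths. Groups, replicate numbers and batches came from the labels.

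Genes were kept by edgeR's filterByExpr (minimum count 10), which left 18266 genes. Counts were scaled with TMM factors, fitted with batch and plasmid terms in edgeR 4.0.16 (R 4.3.3), and tested with its quasi-likelihood test. Benjamini-Hochberg adjustment ran over all tested genes, and an adjusted p under 0.05 was called. SE is the log2 fold change divided by the root of F. Effects within batches and their difference came from a model of 4 batch-by-plasmid groups. CPM are TMM-scaled. The common biological coefficient of variation was 4.08% with the batch term and 8.43% without.

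The labels do not say that replicates came from separate cultures, so p-values measure only the spread between these samples, which may be technical. Pairs of libraries of a group differed beyond sampling noise (chi-square per degree of freedom 4.29 to 23.7), so none was merged. The titles number replicates 1 to 4 in each group and do not call same-numbered libraries pairs. Deviations of same-numbered libraries correlated at 0.61, 0.46, 0.57 and 0.52, and at -0.04 and 0.08 once batch means were removed.

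Named genes were Klf4, the members, up to 3 changed genes of largest size in each direction per list, and the 3 genes most like the most changed member. A gene that this rule selects is not reported here. The members, lists, tests and alternatives were chosen with earlier results of these data known. Alternatives used limma 3.58.1 and DESeq2 1.42.0. Permutation tests and figures used Python 3.11.15. The fits were tested on simulated data.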

Additional observations from a re-analysis of the deposited data

Results flagged for a closer look

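For the 10 genes and Klf4, each set of 4 replicate values was searched for a lone distant value. Of 22 such sets 2 held one, where 1.1 would come up if each set were 4 draws from 1 normal distribution. Each set spans 2 batches and the sets share libraries, so that rate may not apply. Nkx2-2 was at 139 CPM in control replicate 2 while replicates 1, 3 and 4 had 149.6 to 150.9 CPM, and without that library its log2 fold change was -0.26. Rfx6 was at 82.8 CPM in Klf4 replicate 2, above the 76 to 76.9 CPM of the other Klf4 libraries.

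Among 32 named genes the effect of the plasmid differed between batches for 3 by the edgeR interaction test. The difference, batch 2 minus batch 1 on the log2 scale, was -0.249 for Mafa (adjusted p = 0.00817), -0.222 for Etv1 (adjusted p = 0.0295) and 0.371 for Klf4 (adjusted p = 0.0057).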

How the results depend on the processing

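Of the 4 lower members, Nkx2-2 was called under each of 22 other scalings, filters, models and left-out libraries, and Mafa, Pdx1 and Neurod1 under all but the fit with no batch term (adjusted p = 0.365, 0.0576 and 0.0581), which called 1 member and 4116 genes. The replicate block in place of batch called 6284 genes and the same 4 members, and changed no member's call. Requiring a fold change of 1.2 left 3298 genes and 0 members, where edgeR and DESeq2 each called 4 without that requirement and 5 had an unadjusted edgeR p under 0.05. The least-squares offset for GC content and length called 8 members, all lower, with and without the replicate block, and moved Insm1 to -0.40 in both. The cause was not tested. The same offset with robust smoothing, added after the values were seen, called 6 (5 lower, and Isl1 higher) and put Insm1 at -0.067 in both forms, while the 4 called members stayed lower. With TMM factors from abundant genes Nkx6-1 turned to 0.019 and Foxa2 to 0.034, and with a filter at 1 CPM Foxa2 turned to 0.0093. Leaving out 1 library at a time took Foxa2 from -0.045 to 0.014 and Insm1 from -0.0078 to 0.031.

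Leaving out 1 library at a time gave 5889 to 7074 genes and 4 to 6 members changed, 0 to 3 members whose effect differed between batches and 3 to 5 members that differed between batches. The 0, without Klf4 replicate 2, had 3 members at an unadjusted edgeR p under 0.05. Batch 1 fitted alone called 0 members in edgeR and 0 in DESeq2, with 2 at an unadjusted p under 0.05 in each. With TMM factors from abundant genes the target list had 7 changed genes (2 higher, 5 lower) and the partner list 10 (6 higher, 4 lower). Libraries held 45417853 counts or more, and the lowest count of a member in any library was 2824, for Foxa2. The effect of depth on the members was not tested.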
